A study of Homo sapiens with 8 samples.

Results

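The tetraspanin family was followed in Rh41 cells with and without knockdown of G9a. Members were taken from the deposited table by gene symbol: every TSPAN symbol with a number, and CD9, CD37, CD53, CD63, CD81, CD82, CD151, UPK1A, UPK1B, PRPH2 and ROM1. This gave 33 genes of 60234 in the table, each on a single Ensembl identifier. The family was put forward because TSPAN18 and TSPAN6 had been seen to differ in opposite directions between the groups, so the values of these genes in that contrast are given as a description without a test. The other 31 members entered by symbol alone, and their p-values come from a fit over all genes, but the family was chosen on the same contrast and counts of its calls support nothing about the family.

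Tetraspanins are small proteins that cross the membrane several times and hold partner proteins, such as integrins, immunoglobulin-superfamily proteins and the protease ADAM10, together in membrane domains. CD63 sits mostly in late endosomes and lysosomes and is a common marker of extracellular vesicles. CD9 and CD81 are known for their part in the fusion of myoblasts, and CD82 is a surface protein of muscle precursor cells that was first described as a suppressor of metastasis.

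Rh41 is an established cell line from an alveolar rhabdomyosarcoma, a tumour with features of skeletal muscle, and carries the PAX3-FOXO1 fusion. There were 4 control libraries and 4 libraries labelled siG9a, all from this line. EHMT2 encodes G9a, an enzyme that methylates lysine 9 of histone H3. The sample labels say siG9a and the series title says shG9a, no agent or time after knockdown is given, and the replicates are described as biological. All groups are therefore a single tumour line, and what the control cells received is not stated in the sources used here.

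Values are CPM, a read count scaled to the reads assigned to genes in its library, from a method that reads transcript 3′ ends, so levels of different genes can be compared without a correction for length. Libraries held 1458825 to 1938665 reads, and 3 reads, the floor used here, were worth 1.55 to 2.06 CPM. EHMT2 measured 75.3 ± 15.05 CPM in the control libraries and 36.6 ± 16.2 CPM in the siG9a libraries (SD, n = 4 each). It was lower in 4 of 4 pairs, at 34.0%, 51.6%, 37.9% and 66.3% of control, but the groups overlapped, siG9a replicate 4 at 58.5 CPM lying above control replicate 1 at 57.6 CPM, and its limma adjusted p was 0.191, or 0.000472 paired. Of 11 markers of skeletal muscle and rhabdomyosarcoma, 10 reached a mean of 1 CPM, MYF5 being at 0 in every library. In the replicate 3 libraries their summed level was low, at 344 CPM in control (the others 1962 to 2235) and 279 CPM in siG9a (the others 1007 to 1383). The summed level of 6 neuronal markers, nearly all of it NEFM and NEFL, was high there, at 9606 CPM in control (the others 186 to 2041) and 8930 CPM in siG9a (the others 219 to 2950). Replicate 1 was the low end in both groups. It was at 186 CPM in control, with controls 2 and 4 at 1825 and 2041 CPM. In siG9a it was at 219 CPM, with replicates 2 and 4 at 2950 and 1908 CPM. Because replicate 3 stood apart in both marker sums, results are given with and without it where that changes them. Same-numbered libraries of the groups shifted alike clearly for numbers 1 and 3 and only weakly for 2 and 4. A second fit that compared each siG9a library with the control library of its number, here called paired, is set beside the first.

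A few members made up most tetraspanin transcripts of Rh41 cells. CD63 was the highest, at 1424 CPM over the 8 libraries, followed by CD82 at 319 CPM, CD81 at 299 CPM and TSPAN3 at 223 CPM. In control cells the means were 1497 ± 787 CPM for CD63, 473 ± 220 CPM for CD82, 359.7 ± 46.6 CPM for CD81 and 205 ± 45.9 CPM for TSPAN3 (SD, n = 4). CD82 and CD81 did not differ beyond their spread in control cells. A middle group of TSPAN9, CD151, TSPAN33, TSPAN17, TSPAN14, TSPAN4, TSPAN6 and TSPAN5 lay between 29.9 and 79.8 CPM. Next came TSPAN12, a co-receptor in Norrin signalling, then TSPAN18 and CD9. TSPAN8, TSPAN31, TSPAN10, TSPAN7, TSPAN13, TSPAN15, PRPH2, ROM1 and TSPAN11 lay between 1.83 and 10.5 CPM. PRPH2 and ROM1 shape the disc rims of photoreceptors, and their most reads in any library were 14 and 7.

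The remaining 9 members had a mean under 1 CPM and were not tested. CD37, CD53 and TSPAN32 are tetraspanins of leukocytes, and none had more than 3 reads in any library. TSPAN33, placed in the same leukocyte group, lay in the middle group above. TSPAN2 also had at most 3 reads, and TSPAN1, TSPAN16 and TSPAN19 at most 1. The uroplakins UPK1A and UPK1B, which line the bladder, had 0 reads in every library, which by the floor of 3 reads allows up to 1.55 to 2.06 CPM. The leukocyte marker CORO1A was also at 0 in every library.

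The start regions of the members called lower in the paired fit are shown because these genes were lower together. Of the 33 members, 25 had a promoter in the RefSeq table used (build GRCh38.p14), and CD81, CD151 and TSPAN18 were among the 8 without one. The 250 bases before the annotated start are given 5′ to 3′ for the 4 called genes with a single listed start. Capitals mark CAGCTG, an E-box of the kind that MYOD1 binds, which reads the same on both strands. They lie at chr11:44565413-44565662 (plus strand) for CD82, chr7:129144457-129144706 (plus strand) for TSPAN33, chr4:98658612-98658861 (minus strand) for TSPAN5 and chr5:176647234-176647483 (plus strand) for TSPAN17.
CD82: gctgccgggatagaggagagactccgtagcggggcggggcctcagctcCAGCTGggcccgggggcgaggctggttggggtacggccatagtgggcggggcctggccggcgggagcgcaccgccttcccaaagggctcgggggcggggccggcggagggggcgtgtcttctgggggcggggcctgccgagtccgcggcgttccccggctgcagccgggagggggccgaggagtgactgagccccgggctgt
TSPAN33: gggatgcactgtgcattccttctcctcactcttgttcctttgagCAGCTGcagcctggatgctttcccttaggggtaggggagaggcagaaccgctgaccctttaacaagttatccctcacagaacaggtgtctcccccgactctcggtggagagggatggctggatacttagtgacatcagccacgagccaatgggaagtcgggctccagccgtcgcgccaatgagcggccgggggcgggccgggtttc
TSPAN5: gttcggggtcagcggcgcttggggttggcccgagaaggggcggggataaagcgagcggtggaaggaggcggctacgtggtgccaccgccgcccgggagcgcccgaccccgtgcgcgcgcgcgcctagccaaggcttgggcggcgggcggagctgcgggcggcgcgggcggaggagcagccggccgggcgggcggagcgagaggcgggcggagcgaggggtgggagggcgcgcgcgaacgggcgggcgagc
TSPAN17: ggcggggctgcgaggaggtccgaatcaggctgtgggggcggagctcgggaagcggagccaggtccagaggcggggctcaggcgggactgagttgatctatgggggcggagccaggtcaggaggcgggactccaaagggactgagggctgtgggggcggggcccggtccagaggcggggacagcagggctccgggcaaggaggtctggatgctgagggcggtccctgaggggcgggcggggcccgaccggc
CD82 and TSPAN33 held 1 CAGCTG each, and TSPAN5 and TSPAN17 held none in this window. Of the 25 members with a promoter, 8 held the letters before at least 1 start, among them CD9, which was called higher (3 of its 4 starts), and TSPAN14, TSPAN4 and CD63, which were not called. A member with several starts has more chances to hold the letters. Counted by window, 10 of 45 member windows held them, beside 14.0% of all 35116 promoter windows of the table at this length. The windows held 43 CpG in TSPAN5, 26 in CD82, 19 in TSPAN17 and 12 in TSPAN33, against a median of 11 over all windows. Members that were not called ranged as widely, from 1 before a start of TSPAN8 to 45 before a start of TSPAN14. CD9, called higher, held 1 to 29 before its 4 starts. A match is a description of the sequence only.

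The comparison of siG9a with control asks which transcripts differ after the knockdown. In siG9a cells CD82, CD81, CD151, TSPAN33, TSPAN17 and TSPAN5 were lower in 4 of 4 pairs, and CD9 was higher in 4 of 4 pairs. TSPAN14 was also lower in 4 of 4 pairs but was not called, and of all genes tested 15.3% were lower and 14.9% higher in 4 of 4 pairs. TSPAN33 was at 16.5% and CD82 at 34.9% of their control means, while CD81, CD151, TSPAN17 and TSPAN5 were at 54.0% to 66.2%. The most abundant member, CD63, differed by less than the spread between replicates.

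Without pairing, limma called none of the 22 members tested besides TSPAN18 and TSPAN6, with 7 at an unadjusted p under 0.05, and 0 of all 15092 genes (0%), with 1880 at an unadjusted p under 0.05. Paired, limma called 7 of the 22, 6 lower and 1 higher in siG9a, beside 11.4% of all genes (6.52% lower and 4.86% higher). No inference is drawn from this share. edgeR, paired, also called 7, beside 11.3% of all genes (6.59% lower and 4.75% higher), and without pairing it called none. DESeq2, paired, called 4, namely CD82, CD81, CD151 and TSPAN33, all lower, beside 8.08% of the genes it tested (5.32% lower and 2.76% higher). DESeq2 without pairing called CD82 and TSPAN33, beside 2.59% (1.74% lower and 0.851% higher). The DESeq2 shares are over 11581 genes paired and 11283 without pairing. Of the 22 members, PRPH2, ROM1 and TSPAN11 had no adjusted p in either DESeq2 fit. limma without pairing called the same 2 genes without control replicate 3, beside 1.99% of all genes (1.44% lower and 0.55% higher), and without both replicate 3 libraries, beside 2.74% (1.95% lower and 0.782% higher). The median log2 difference of the 22 members was −0.19, with 15 negative and 7 positive, beside 0.01 over all genes tested.

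**Figure D1:**
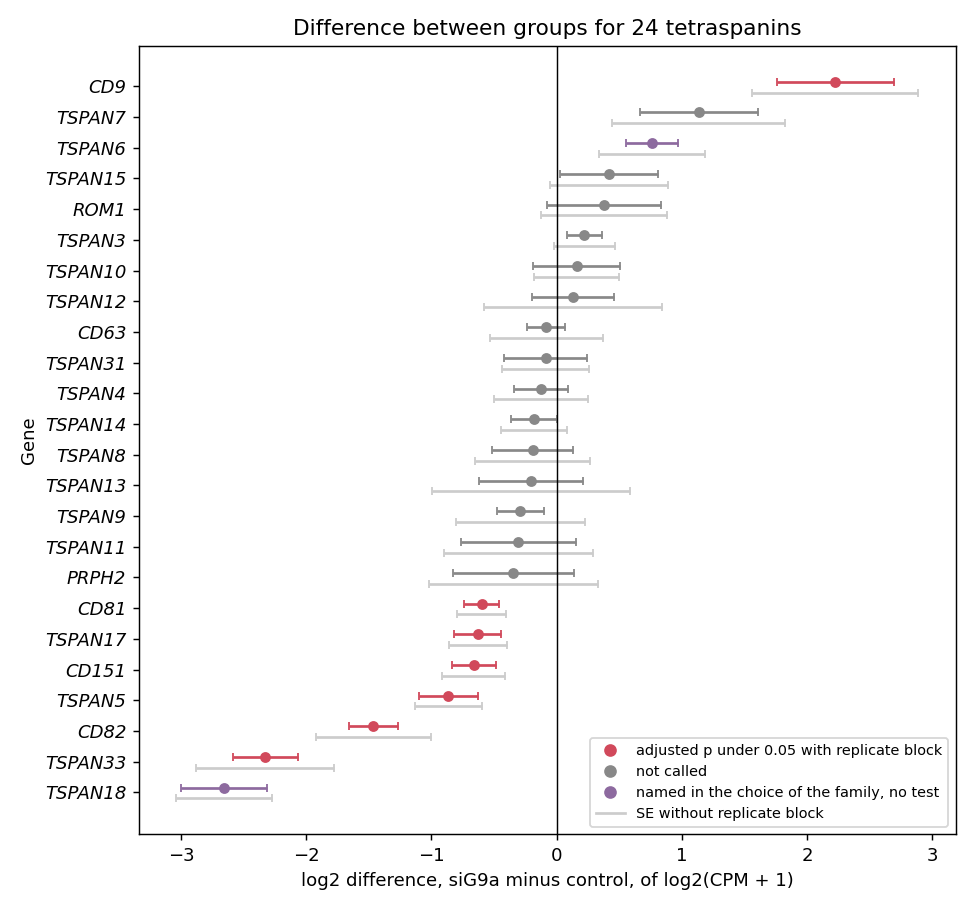
Differences between siG9a and control in log2(CPM + 1) for the 24 members with a mean of at least 1 CPM, with n = 4 libraries per group. Points with coloured bars give the difference and its SE in the paired limma fit, and pale bars the SE of the fit without pairing. Red marks the 7 members with an adjusted p under 0.05 in the paired fit, from TSPAN33 at −2.33 to CD9 at 2.22, and purple the genes given without a test, TSPAN18 at −2.66 and TSPAN6 at 0.76.

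TSPAN18, which promotes calcium entry through the channel ORAI1 in endothelial cells, is one of the genes for which the family was chosen. It measured 30.9, 27.3, 11.1 and 22.9 CPM in controls 1 to 4 and 3.61, 1.82, 2.28 and 2.87 CPM in siG9a libraries 1 to 4. Every siG9a library lay below every control library, and control replicate 3 was the lowest control. The siG9a values rest on 7, 3, 4 and 5 reads, so that the 95% Wilson interval of the lowest ran from 0.618 to 5.34 CPM. The means were 23.03 ± 8.62 and 2.65 ± 0.774 CPM (SD, n = 4 each), siG9a being at 11.5% of control, with a log2 difference of −2.66 ± 0.38 (SE, limma). A pseudocount of 5 in place of 1 gave −1.82. TSPAN18 overlaps TP53I11 on the other strand (19.7 CPM), and the use of strand in the counting is not given in the sources used here.

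TSPAN6, a member known to dampen signalling by RIG-I-like receptors, is the other. It measured 12.3, 18.2, 51.04 and 28.6 CPM in control and 27.9, 31.5, 73.7 and 45.3 CPM in siG9a. The groups overlapped, but siG9a was higher in 4 of 4 pairs, at 226%, 173%, 144% and 159% of control. Replicate 3 was the highest of its group in control and in siG9a. The means were 27.5 ± 17.04 and 44.6 ± 20.8 CPM (SD, n = 4 each), with a log2 difference of 0.76 ± 0.42 (SE, limma) and ± 0.21 (SE) in the paired fit. Leaving out control replicate 1 gave 0.46, leaving out siG9a replicate 3 gave 0.49, and leaving out both replicate 3 libraries gave 0.84. Without control replicate 3 alone it was 1.11.

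**Figure D2:**
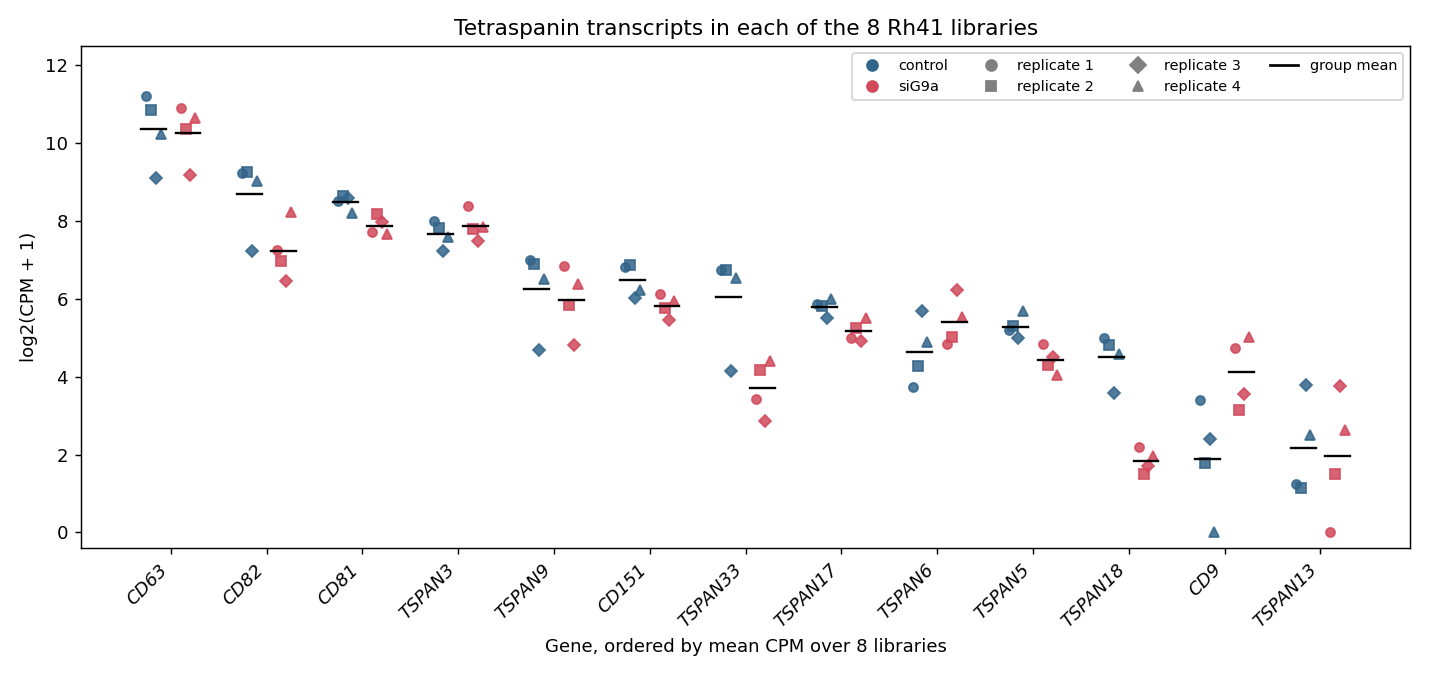
Levels of 13 tetraspanins as log2(CPM + 1) in each of 4 control libraries (blue) and 4 siG9a libraries (red), with the symbol giving the replicate number and a line the group mean. CD81, TSPAN5 and TSPAN18 show no overlap between the groups, CD82 and TSPAN33 overlap only through control replicate 3 (diamonds), and points at 0 are libraries without a read.

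Among the classical surface members called lower in the paired fit, CD82 had the largest log2 difference. It measured 603, 616, 148 and 525 CPM in controls 1 to 4 and 151.7, 125, 86.8 and 298 CPM in siG9a libraries 1 to 4. Control replicate 3 lay within the siG9a range, and the other 3 control libraries lay above all siG9a libraries. siG9a was at 25.1%, 20.3%, 58.6% and 56.7% of control in pairs 1 to 4. The log2 difference was −1.46 ± 0.46 (SE), at a limma adjusted p of 0.233, and −1.46 ± 0.19 with an adjusted p of 1.9e-05 paired. Without control replicate 3 the unpaired limma adjusted p was 0.0114, and without both replicate 3 libraries the difference was −1.70 with an adjusted p of 0.00267.

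CD81, which like CD9 binds immunoglobulin-superfamily proteins, measured 365, 399, 382 and 293 CPM in control and 208, 291, 252 and 202 CPM in siG9a. The groups did not overlap, but the highest siG9a library, at 290.5 CPM, nearly met the lowest control, at 292.9 CPM. The log2 difference was −0.60 ± 0.20 (SE), at a limma adjusted p of 0.254, and 0.00533 paired. CD151, a partner of laminin-binding integrins, measured 111.7, 115, 64.6 and 74.3 CPM in control and 69.1, 53.9, 42.8 and 60.2 CPM in siG9a. Its groups overlapped through control replicate 3 and siG9a replicate 1. The log2 difference was −0.66 ± 0.25 (SE), at a limma adjusted p of 0.318, and 0.0139 paired. The paired call of CD151 was lost without pair 1 (adjusted p = 0.0556, limma), pair 2 (0.168) or pair 3 (0.0519). POLR2L, at 410 CPM, overlaps CD151 on the other strand, and the part of its reads in the CD151 values was not tested.

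CD9 was the classical member called higher in siG9a. It measured 9.60, 2.43, 4.30 and 0 CPM in controls 1 to 4 and 25.8, 7.87, 10.9 and 31.5 CPM in siG9a libraries 1 to 4. The values rest on 14, 4, 7 and 0 reads in control and 50, 13, 19 and 55 reads in siG9a, and siG9a replicate 2 lay below control replicate 1. The log2 difference was 2.22 ± 0.67 (SE), at a limma adjusted p of 0.212, and 2.22 ± 0.47 with an adjusted p of 0.00255 paired. A pseudocount of 5 gave 1.38. Without pair 4, whose control library had no CD9 read, it was 1.29, with a paired limma adjusted p of 0.0345. DESeq2, paired, did not call CD9 (adjusted p = 0.198). CD9 transcripts were 0 to 2.63% of the CD81 level in the control libraries and 2.71% to 15.6% in the siG9a libraries.

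CD63 measured 2367, 1855, 553 and 1212 CPM in control and 1903, 1329, 578 and 1599 CPM in siG9a. Both replicate 3 libraries were far below the others, and siG9a was lower in pairs 1 and 2 and higher in pairs 3 and 4. The log2 difference was −0.08 ± 0.45 (SE), at a limma adjusted p of 0.964, and 0.788 paired. TSPAN3 measured 255, 225, 148 and 191 CPM in control and 333, 219.7, 179 and 229 CPM in siG9a, a log2 difference of 0.22 ± 0.24 (SE; limma adjusted p = 0.761, paired 0.351). TSPAN9 measured 126, 117, 24.6 and 89.8 CPM in control and 113.5, 56.3, 27.4 and 83.2 CPM in siG9a, a log2 difference of −0.29 ± 0.52 (SE; limma adjusted p = 0.877, paired 0.361). These 3 abundant members thus did not differ between the groups beyond the spread of their libraries. AC005912.1, a processed pseudogene at 427 CPM, overlaps TSPAN9 on the other strand, and the part of its reads in the TSPAN9 values was not tested.

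The TSPANC8 members, TSPAN5, TSPAN10, TSPAN14, TSPAN15, TSPAN17 and TSPAN33, bind ADAM10 and govern its maturation and choice of substrates. All 6 were tested. Without pairing limma called none, paired limma called 3 lower and none higher, beside 6.52% and 4.86% of all genes, and paired DESeq2 called TSPAN33 alone. Their summed level was 231 ± 61.7 CPM in the control libraries and 124 ± 17.3 CPM in the siG9a libraries (SD, n = 4 each), lower in 4 of 4 pairs. Control replicate 3, at 140.2 CPM, lay next to siG9a replicate 2, the highest siG9a library at 139.8 CPM. ADAM10 itself, which sheds the outer parts of Notch, cadherins and other surface proteins, had a log2 difference of −0.30 with a limma adjusted p of 0.831, and 0.420 paired.

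TSPAN33 was the most abundant TSPANC8 member in 3 of 4 control libraries. It measured 105.6, 106, 16.6 and 92.4 CPM in controls 1 to 4 and 9.80, 16.95, 6.28 and 20.1 CPM in siG9a libraries 1 to 4. Control replicate 3 fell within the siG9a range, and the other 3 control libraries lay far above it. The log2 difference was −2.33 ± 0.55 (SE), at a limma adjusted p of 0.127, and −2.33 ± 0.26 with an adjusted p of 1.62e-06 paired. Without control replicate 3 the unpaired limma adjusted p was 0.00163, and without both replicate 3 libraries the difference was −2.68 with an adjusted p of 0.000102.

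TSPAN5 measured 35.7, 38.3, 30.8 and 50.4 CPM in control and 27.9, 18.8, 21.7 and 15.5 CPM in siG9a, with no overlap between the groups. Its log2 difference was −0.87 ± 0.27 (SE), at a limma adjusted p of 0.227, and 0.0172 paired. That paired call was lost without pair 2 (adjusted p = 0.107, limma) or pair 4 (0.122), and with DESeq2, paired (0.0544). TSPAN17 measured 57.6, 55.3, 44.3 and 63.4 CPM in control and 30.95, 36.9, 29.1 and 44.7 CPM in siG9a, the groups touching at control replicate 3 and siG9a replicate 4. Its log2 difference was −0.63 ± 0.23 (SE), at a limma adjusted p of 0.298, and 0.0283 paired. That paired call was lost without pair 1 (adjusted p = 0.127, limma), pair 2 (0.117) or pair 3 (0.0842), and with DESeq2, paired (0.0938). CD81 and TSPAN5 were the members without overlap besides TSPAN18, both lower in siG9a, beside 3.45% of all genes tested that were lower without overlap (3.88% higher, 7.32% in all).

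TSPAN14, TSPAN15 and TSPAN10 were not called in either fit. TSPAN14 was lower in 4 of 4 pairs, at 46.8 ± 11.4 CPM in the control libraries and 41.5 ± 10.9 CPM in the siG9a libraries (SD, n = 4 each), a difference within the spread, with a limma adjusted p of 0.598 paired. The makeup of the TSPANC8 group therefore differed between the libraries. TSPAN33 held 42.7%, 38.9%, 11.8% and 35.0% of TSPANC8 reads in controls 1 to 4 and 8.76%, 12.1%, 5.88% and 14.5% in siG9a libraries 1 to 4. The share of control replicate 3 (95% Wilson interval 8.27% to 16.7%, 228 reads) lay among the siG9a shares. TSPAN14 held 21.1 ± 5.91% in control and 33.1 ± 5.61% in siG9a (SD, n = 4 each) and was higher in 4 of 4 pairs. These shares sum to a fixed total, so a lower share of TSPAN33 raises the summed share of the others, though not each of them. TSPAN5 held 17.3 ± 3.82% in control and 17.5 ± 6.29% in siG9a (SD, n = 4 each) and was lower in 3 of 4 pairs.

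**Figure D3:**
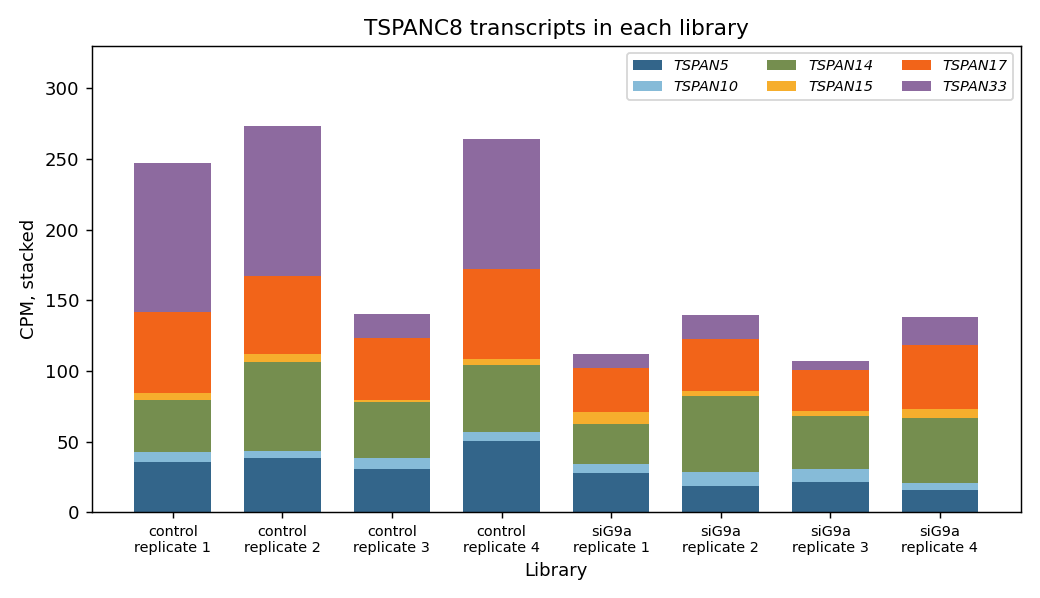
CPM of the 6 TSPANC8 transcripts, stacked, in each of the 4 control and 4 siG9a libraries. TSPAN33 (purple) spans 92.4 to 106 CPM in control replicates 1, 2 and 4 and 6.28 to 20.1 CPM in siG9a, with control replicate 3 at 16.6 CPM.

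The summed level of the muscle markers was 344 to 2235 CPM in control and 279 to 1383 CPM in siG9a. Of the 11, DES, MYH3, CHRNA1, FGFR4, CDH15 and TNNT2 were lower in 4 of 4 pairs and none was higher in all, beside 15.3% and 14.9% of all genes. MYOD1, the most abundant, was mixed, at 864, 817, 95.3 and 854 CPM in controls 1 to 4 and 821, 608, 128 and 839 CPM in the siG9a libraries, and MYOG, MYH8 and CHRND were each higher in siG9a in 1 or 2 pairs. Of 6 markers tied to PAX3-FOXO1, 4 (TFAP2B, NOS1, PIPOX and KCNN3) were lower in 4 of 4 pairs. CDH3 and OLIG2, both low, were mixed. CDH3 measured 0.69, 0, 4.92 and 0.52 CPM in control and 2.06, 1.21, 1.14 and 0.57 CPM in siG9a. OLIG2 measured 2.74, 6.68, 1.84 and 2.08 CPM in control and 5.67, 3.03, 1.71 and 5.16 CPM in siG9a. CD82 and TSPAN33 were lower in control replicate 3 and in the siG9a libraries than in the other control libraries, and so was the summed muscle level. That level was 1277, 1007 and 1383 CPM in siG9a replicates 1, 2 and 4, and 344 CPM in control replicate 3. MYOD1 was the largest part of it in those siG9a libraries, and single markers varied. DES was at 50.03, 40.55 and 150.8 CPM in them and at 47.35 CPM in control replicate 3. CDH15 was at 54.7, 75.05 and 114.7 CPM in them and at 27.1 CPM in control replicate 3. The part of the markers in the tetraspanin values was not tested. In RNA from whole cultures, fewer cells of a kind and less RNA per cell cannot be told apart.

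The other tested members were called in neither fit. TSPAN4, which takes part in forming migrasomes on retraction fibres, ranged from 20.3 to 63.2 CPM in control and from 22.8 to 49.3 CPM in siG9a. TSPAN12 ranged from 2.46 to 23.4 CPM and from 3.43 to 46.4 CPM. TSPAN7, known from synapses, ranged from 0 to 10.5 CPM and from 4.24 to 14.4 CPM, with a log2 difference of 1.14 ± 0.69 (SE; limma adjusted p = 0.538, paired 0.126). TSPAN8, TSPAN31, TSPAN10, TSPAN15, PRPH2, ROM1 and TSPAN11 had log2 differences between −0.35 and 0.42, within their spread.

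Many members shared a pattern by replicate number. Of the 24 members tested, 13 were lowest in replicate 3 in control and in siG9a alike, beside 19.8% of all genes tested. They were CD63, CD82, TSPAN3, TSPAN9, CD151, TSPAN33, TSPAN17, TSPAN4, TSPAN12, TSPAN8, TSPAN15, PRPH2 and TSPAN11. Some of these rest on few reads. TSPAN11 had 1 read in control replicates 1 and 3, and PRPH2 had 1 read in siG9a replicates 2 and 3. Only library size set their order there. In replicate 3 of control and siG9a, TSPAN12 had 4 and 6 reads and TSPAN15 had 2 and 5. TSPAN6 and TSPAN13 were highest in replicate 3 in both groups, beside 20.1% of all genes. TSPAN13 measured 1.37, 1.22, 12.9 and 4.67 CPM in control and 0, 1.82, 12.6 and 5.16 CPM in siG9a, so that its replicates differed far more than its groups. TSPAN12 was at 13.8% of the median of the other libraries in control replicate 3 and at 27.2% in siG9a replicate 3. CD81 was nearly level, at 105% and 121%. TSPAN7 was at 763% in control and 71.1% in siG9a, and was called higher in siG9a by paired limma only when pair 3 was left out (adjusted p = 0.0416).

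**Figure D4:**
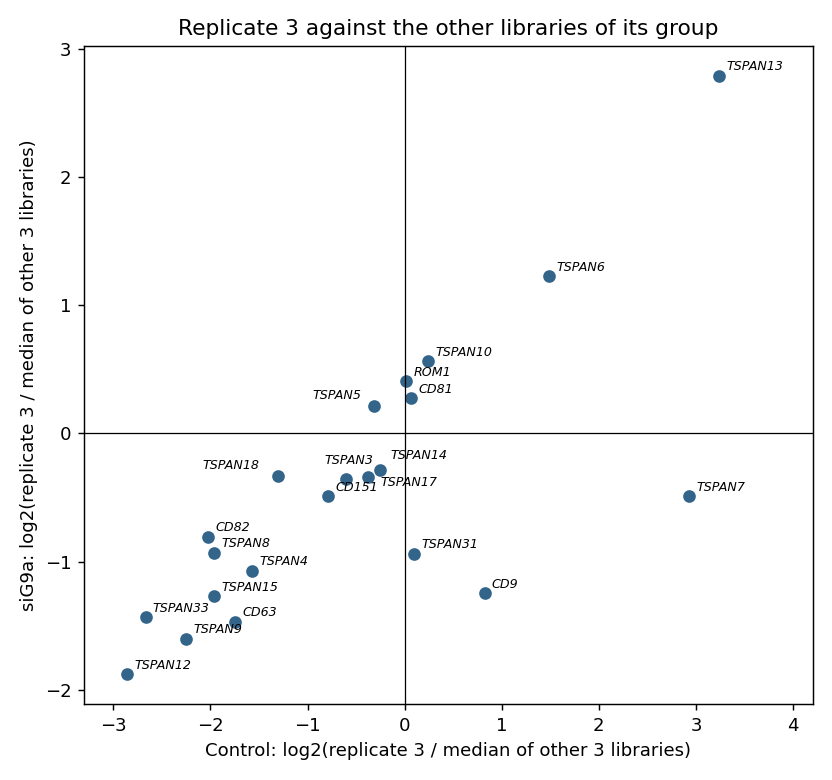
Level of replicate 3 relative to the median of the other 3 libraries of its group, as log2 ratios, in control (x axis) and siG9a (y axis), for 22 tested tetraspanins (PRPH2 and TSPAN11 are left out because replicate 3 was at 0 in a group). Of the 22, 13 lie at the lower left, below 0 on both axes, TSPAN13 and TSPAN6 lie farthest to the upper right, and CD81 lies near the origin.

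The summed tetraspanin level was 3100 ± 1166 CPM in the control libraries and 2411 ± 731 CPM in the siG9a libraries (SD, n = 4 each), lower in 4 of 4 pairs, and 1593 and 1422 CPM in the replicate 3 libraries. Pair 4 was nearly level, at 2811 CPM in control and 2795 CPM in siG9a. The groups overlapped, and the sum includes TSPAN18 and TSPAN6. CD63 held 45.8 ± 9.02% of it in control and 54.1 ± 9.19% in siG9a, and CD82 held 14.7 ± 4.00% and 6.76 ± 2.64% (SD, n = 4 each).

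A list of 44 known tetraspanin partners was examined beside the family. Of these, 42 were found by symbol and 30 tested. Without pairing, limma called none, with 3 at an unadjusted p under 0.05. Paired, it called 5, with 4 lower and 1 higher, beside 11.4% of all genes, and edgeR, paired, also called 5. The median log2 difference of the 30 was −0.21, with 18 negative and 12 positive.

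Among the integrins, ITGA7, the laminin receptor subunit of muscle, measured 73.4, 52.9, 17.2 and 62.3 CPM in control and 35.1, 26.6, 10.9 and 26.4 CPM in siG9a. It was lower in 4 of 4 pairs, with a log2 difference of −0.96 ± 0.45 (SE) and limma adjusted p-values of 0.414 and, paired, 0.00315. Without both replicate 3 libraries the unpaired limma adjusted p was 0.0337. ITGA4, a receptor subunit for VCAM1 and fibronectin, measured 19.9, 22.5, 11.7 and 29.6 CPM in control and 9.28, 9.68, 1.71 and 14.3 CPM in siG9a, with limma adjusted p-values of 0.307 and, paired, 0.00440. ITGB5, which pairs with the alpha V subunit, was lower in 3 of 4 pairs, from 91.5 ± 44.7 to 55.98 ± 29.5 CPM (SD, n = 4 each), with limma adjusted p-values of 0.530 and, paired, 0.0354. Its paired call was lost without pair 1 (adjusted p = 0.196, limma), pair 2 (0.295) or pair 3 (0.160), and with DESeq2, paired (0.0953). ITGB1, ITGA5, ITGAV, ITGA3 and ITGA6 were not called in either fit.

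CD44, the hyaluronan receptor, measured 61.7, 43.8, 71.3 and 48.3 CPM in control and 34.04, 29.7, 32.5 and 23.5 CPM in siG9a, with no overlap and with replicate 3 not low in either group. Its log2 difference was −0.88 ± 0.24 (SE), with limma adjusted p-values of 0.186 and, paired, 0.00393. PDCD6IP, the ESCRT protein ALIX that acts in vesicle budding, was the partner called higher, at 8.91, 10.3, 17.8 and 18.2 CPM in control and 35.1, 24.2, 30.3 and 21.2 CPM in siG9a, also without overlap. Its log2 difference was 0.99 ± 0.31 (SE), with limma adjusted p-values of 0.237 and, paired, 0.0178. Its paired call was lost without pair 1 (adjusted p = 0.154, limma), pair 2 (0.105) or pair 3 (0.0541), and with DESeq2, paired (0.0716). SDCBP, the vesicle adaptor syntenin that binds the CD63 tail, had a log2 difference of 0.06 and was not called.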

How the data were processed

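Expression was measured in 8 libraries of Rh41 cells, 4 control and 4 siG9a, by QuantSeq 3′ sequencing of total RNA, per the labels' protocols. The authors deposited CPM per gene and library, per the file headers. FastQC 0.11.8, Trim Galore, STAR 2.5.0a, HTSeq 0.8.0 and edgeR 3.28 are named in the submitters' processing notes, together with both GRCh38 and hg19, so no coordinates of the counting are given. Dividing each CPM by the value of 1 read gave whole reads for 100% of non-zero entries (tolerance 0.0051 CPM), and library totals ran from 1458825 to 1938665. Intervals and floors cover counting error only.

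limma 3.58.1 (R 4.3.3, eBayes with trend, two-sided) was fitted to log2(CPM + 1) for 15092 genes, those averaging 1 CPM or more, with the group as the only term and Benjamini-Hochberg adjustment over all of them (threshold 0.05). The pseudocount of 1 understates changes of low genes. The paired fit added the replicate number, taken from the sample titles. Deviations from the group means had correlations across genes of 0.50, 0.10, 0.67 and 0.13 for numbers 1 to 4, each above the limit of 0.1 for treating numbers as pairs. Control 2 and siG9a 4, of different numbers, had 0.14, above the values of numbers 2 and 4, so the pairing is clear for numbers 1 and 3 alone. edgeR 4.0.16 and DESeq2 1.42.0 were run on the recovered reads. Other pseudocounts, filters, scaling and left-out libraries were also tried, and the scripts were tested on simulated data.

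The members and lists were chosen with earlier results of these data known. Every library is given for TSPAN18, TSPAN6, the 8 highest members, members called or without overlap, members shifted over 4-fold in replicate 3 of both groups, and partners called in either fit. Overlapping genes were looked up by name in GENCODE release 29. MYMK and MYMX were not matched by symbol and are not analysed here.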

Additional observations from a re-analysis of the deposited data

Results flagged for a closer look

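Dixon's ratio was computed for the extreme libraries of 42 groups of 4 (13 tetraspanins, 5 partners, the summed family, the summed TSPANC8 members and total reads, in control and in siG9a). Chance flags about 5% of groups, or 2.1 here. Only 1 library stood apart: control replicate 3 had 16.6 CPM of TSPAN33, against 92.4 to 106 CPM in controls 1, 2 and 4.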

How the results depend on the processing

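Without the replicate block, limma called 0 of all genes, 0 of the 22 tetraspanins and 0 partners with pseudocounts of 0.1 or 5, a mean of at least 5 CPM or median-ratio scaling, as did edgeR without the block. With no filter 18 genes were called, none a tetraspanin or partner. With the replicate block limma called 1717 genes, 7 tetraspanins and 5 partners, and edgeR called 1711, 7 and 5. With DESeq2 the counts were 936, 4 and 3 (blocked) and 292, 2 and 0 (unblocked). Over fits that left out a library, or both libraries of a number, counts ran from 0 to 1393 genes, 0 to 6 tetraspanins and 0 to 6 partners, the higher ends with the block. In limma without the block, calls of tetraspanins under left-out libraries appeared only when control replicate 3 (300 genes, 2 tetraspanins) or both replicate 3 libraries (413 genes, 2 tetraspanins, 1 partner) were left out, the latter chosen after seeing the data. With the block, leaving out pair 1, 2, 3 or 4 gave 951, 668, 1078 or 1393 genes.

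Of 413 log2 differences of 18 named genes under these settings, 8 had the opposite sign. CD63 was at 0.20 without control replicate 1, 0.08 without control replicate 2, 0.28 without siG9a replicate 3 and 0.05 with the block without pair 2. TSPAN9 was at 0.093 without siG9a replicate 3. TSPAN13 was at 0.34 without control replicate 3, 0.45 without siG9a replicate 1 and 0.14 with the block without pair 1. Over all left-out libraries CD63 ran from −0.50 to 0.28, TSPAN9 from −0.82 to 0.093 and TSPAN13 from −0.80 to 0.45. The cause was not tested. Depth limits the low members: TSPAN18 had at most 7 reads in a siG9a library.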
